A study of Mus musculus with 8 samples.

Results

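A list of 8 sarcomeric myosin heavy chain genes of the mouse, Myh1, Myh2, Myh3, Myh4, Myh6, Myh7, Myh8 and Myh13, was examined for open chromatin in satellite cells, which are the stem cells of skeletal muscle. The members were chosen by gene name, each taken with its body and 10 kb on both sides, and they are 8 of 34324 genes, coding or long noncoding, placed on chromosomes 1 to 19 and X. All 8 were among the 27934 gene loci with enough peak coverage to be tested. ATAC-seq, in which a transposase cuts and tags accessible DNA, gave 1 list of broad peaks for each of 8 libraries in 4 groups of 2. All cells came from hindlimb muscle of C57BL/6 mice. The groups were satellite cells kept in culture with an siRNA against the long noncoding RNA LncMyod for 48 h (LncMyod siRNA), cells kept in culture with a control siRNA (control siRNA), cells taken from muscle 2.5 days after an injury (ASC), and cells analysed straight after isolation from muscle (QSC). The labels give no culture time for the control siRNA and name no animal or culture behind a replicate. The p-values therefore measure the spread between these libraries, which may be technical.

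Sarcomeric myosin heavy chains are the motor subunits of the thick filament, and which of them a fibre makes sets its speed of contraction. Myh3 (embryonic) and Myh8 (perinatal) are the developmental forms, made again in regenerating muscle. Myh2 (type IIa), Myh1 (type IIx) and Myh4 (type IIb) are the adult fast forms, Myh13 serves the extraocular muscles, Myh7 is the slow and beta-cardiac form, and Myh6 is the alpha-cardiac form. The fast and developmental genes stand in 1 cluster whose order is conserved in mammals, and they are known to share distant enhancers.

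In GRCm38.p6, which shares its chromosome coordinates with mm10, the cluster runs along the plus strand of chromosome 11. It holds Myh3 (chr11:67078273-67102291), Myh2 (chr11:67171027-67197517), Myh1 (chr11:67200102-67224577), Myh4 (chr11:67237812-67260447), Myh8 (chr11:67277124-67308634) and Myh13 (chr11:67327103-67371587). The gap between the bodies of Myh3 and Myh2 is 68735 bp, and the next gaps are 2584, 13234, 16676 and 18468 bp. Myh7 (chr14:54970684-54994626) and Myh6 (chr14:54941921-54968017) lie head to tail on the minus strand of chromosome 14, 2666 bp apart. With the flanks of 10 kb, the cluster spans chr11:67068273-67381587 and the pair chr14:54931921-55004626. Because Myh1 and Myh2 are so close, their loci share peaks and are not independent. The loci of Myh6 and Myh7 also share a peak.

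The 300-base windows around the annotated starts (250 bases before and 50 after, RefSeq, GRCm38.p6) are shown for the 4 chromosome 11 genes whose start lay under a peak in at least 1 library. They are Myh3 (chr11:67078050-67078349), Myh8 (chr11:67276874-67277173), Myh1 (chr11:67199852-67200151) and Myh4 (chr11:67237562-67237861), all on the plus strand and written 5′ to 3′. Capitals mark letters that match an E-box (CANNTG), an MCAT motif (CATTCC) or a MEF2 site, searched on both strands.
Myh3: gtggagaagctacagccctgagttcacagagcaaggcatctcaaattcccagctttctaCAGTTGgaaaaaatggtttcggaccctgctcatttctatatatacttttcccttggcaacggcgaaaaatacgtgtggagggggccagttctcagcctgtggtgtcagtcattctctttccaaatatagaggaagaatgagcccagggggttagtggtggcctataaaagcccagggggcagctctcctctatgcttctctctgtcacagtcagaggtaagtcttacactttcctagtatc
Myh8: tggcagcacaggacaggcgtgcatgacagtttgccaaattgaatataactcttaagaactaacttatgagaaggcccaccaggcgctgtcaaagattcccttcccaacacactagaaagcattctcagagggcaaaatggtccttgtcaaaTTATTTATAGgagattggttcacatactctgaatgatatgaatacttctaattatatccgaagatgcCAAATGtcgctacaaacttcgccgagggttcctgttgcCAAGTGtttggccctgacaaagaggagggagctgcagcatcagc
Myh1: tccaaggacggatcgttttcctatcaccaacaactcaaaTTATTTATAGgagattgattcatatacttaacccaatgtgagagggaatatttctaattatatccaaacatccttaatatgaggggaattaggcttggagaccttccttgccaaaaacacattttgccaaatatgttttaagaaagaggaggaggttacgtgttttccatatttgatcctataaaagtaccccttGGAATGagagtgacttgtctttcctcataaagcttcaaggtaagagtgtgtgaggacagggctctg
Myh4: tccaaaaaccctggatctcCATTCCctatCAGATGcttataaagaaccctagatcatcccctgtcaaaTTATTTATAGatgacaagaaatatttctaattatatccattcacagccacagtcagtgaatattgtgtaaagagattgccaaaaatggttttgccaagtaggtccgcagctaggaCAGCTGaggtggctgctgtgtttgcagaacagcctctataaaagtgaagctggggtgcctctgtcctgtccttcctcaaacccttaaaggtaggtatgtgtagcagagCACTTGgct

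An E-box, the motif of MyoD and related factors, occurred in 72.3% of all 32585 such windows, the MCAT motif of TEAD factors in 14.6% and a MEF2 site in 3.11%. The windows of Myh1, Myh4 and Myh8 each held the same 10-letter MEF2 match, at 211, 182 and 99 bases before the start. Around it Myh1 and Myh8 shared an unbroken run of 22 bases. The window of Myh2 held none of these motifs but shared runs of 21 bases with those of Myh1 and of Myh4. A match here is a description of letters, not evidence of a bound site.

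Peaks numbered 79396 to 95449 per library in LncMyod siRNA, 81327 and 82854 in control siRNA, 59666 and 70341 in ASC, and 64991 and 69595 in QSC. The peak lists hold no read counts, so depth is unknown, and the lack of a peak does not show closed chromatin. ASC replicate 2 had the shortest list. Of the 43 merged peak regions in the chromosome 11 cluster, 5 were held by every library except that one, beside 2% of all regions. Covered length was scaled by the sum of all peak widths in the same library, which does not restore peaks missing from a short list. Among markers of satellite cells and myoblasts, all 9 genes had covered length in every library, and the summed level was 32.4 to 39.5 kb with LncMyod siRNA, 38.4 to 39.3 kb with control siRNA, 42.3 to 45.0 kb in ASC and 44.7 to 45.5 kb in QSC. In ASC against QSC, 2 of the 9 fell, beside 5.26% of everything tested (the 27934 loci, the whole cluster and the whole pair): Cd34 (−1.26, adjusted p = 0.0183, limma) and Calcr, the calcitonin receptor gene (−0.89, adjusted p = 0.0201); values are log2 differences in scaled covered length. Myod1 rose (0.58, adjusted p = 0.0466, limma) and Cd34 fell (−1.61, adjusted p = 0.00748) in control siRNA against QSC, beside 9.96% and 6.96% of everything tested. These marker changes stand beside the cluster and Myh4 results in the same comparisons, and their part in them was not tested.

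Across the 2 domains, the merged peaks of all libraries formed 43 regions on chromosome 11 and 9 on chromosome 14. All 8 libraries held 7 of the 43 and 2 of the 9, beside 24.98% of all 141310 regions of the genome. Regions held by 1 library numbered 14 of the 43 and 3 of the 9, beside 26.04% of all regions. Among the peaks shared by all libraries, the one 5.6 kb upstream of Myh2, at chr11:67164693-67165409, had the highest fold in every library except QSC replicate 2. Its deposited fold enrichment over local background was 9.31 and 8.05 in LncMyod siRNA, 9.56 and 9.60 in control siRNA, 8.29 and 6.61 in ASC, and 8.05 and 7.06 in QSC. This placed it among the top 0.974% to 6.55% of peaks of its own library. In QSC replicate 2 the peak beyond the 3′ end of Myh13 was higher, with a fold of 7.81. Fold enrichments are the authors' values for single peaks, compared here within a library only. Where they are listed for several libraries, no comparison between these is meant, because the library median fold ran from 3.31 to 4.32.

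**Figure D1:**
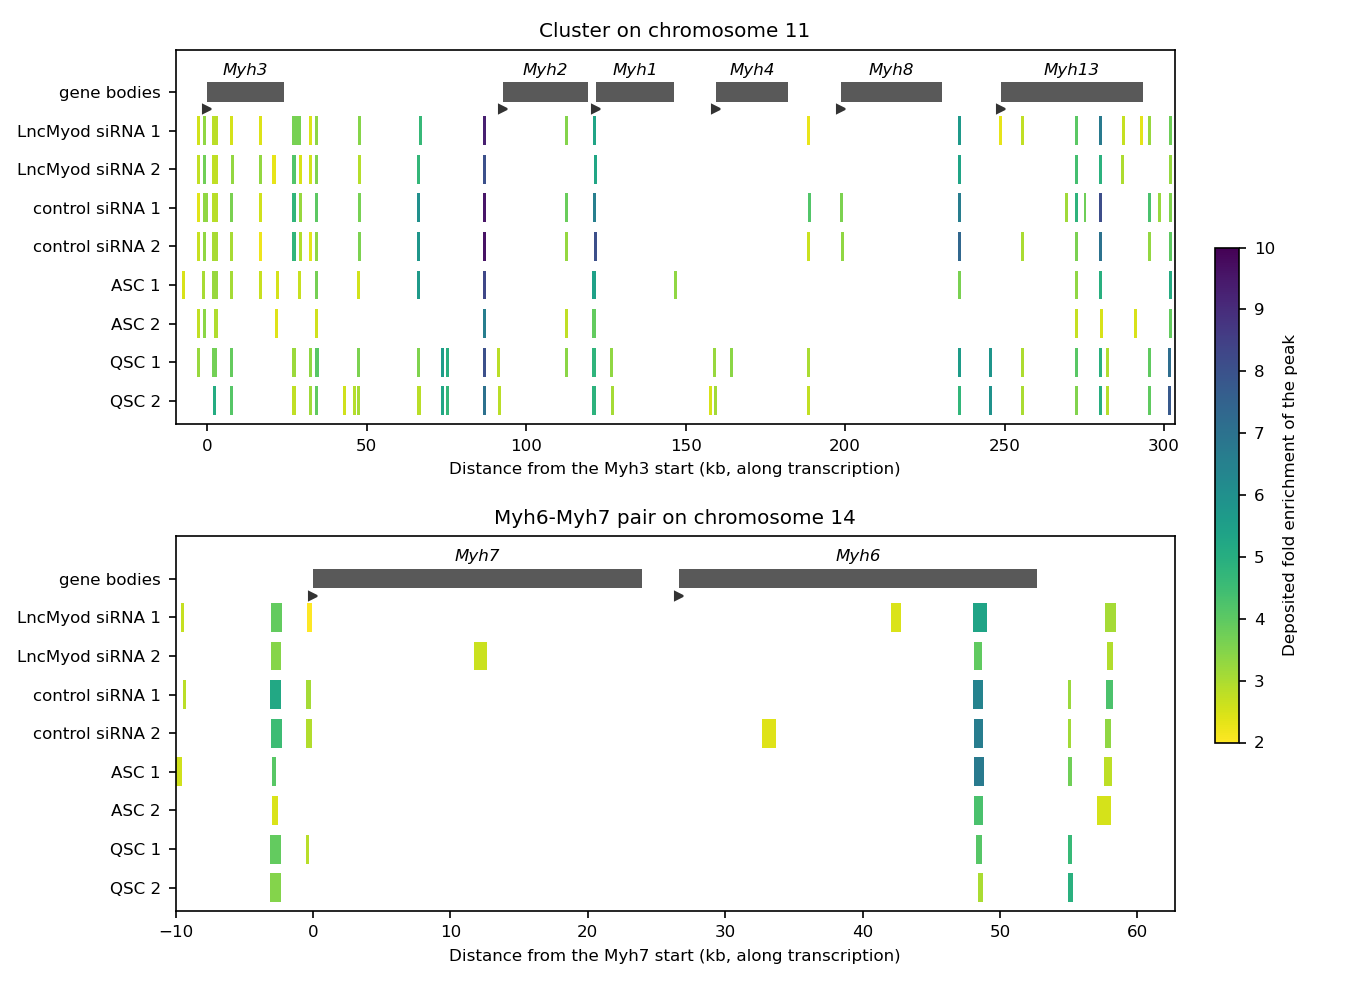
Peaks of each library across the chromosome 11 cluster and the chromosome 14 pair, plotted against the distance in kb from the Myh3 or the Myh7 start, with colour for the deposited fold enrichment; triangles mark the upstream end of each gene and the narrowest peaks are drawn wider than they are. The QSC rows carry peaks upstream of Myh2, before Myh4 and before Myh13 that the other 6 rows lack, and the peak 5.6 kb upstream of Myh2 stands in all 8 rows.

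Taken as a whole, the chromosome 11 cluster was most covered in QSC. It had 12.2 and 13.3 kb of scaled covered length in LncMyod siRNA, 14.6 and 13.6 kb with control siRNA, 11.2 and 9.05 kb in ASC, and 17.4 and 16.3 kb in QSC. The values of ASC and of QSC did not overlap each other or those of either cultured group. Covered length fell in ASC against QSC, with a log2 difference of −0.71 (SE 0.12, adjusted p = 0.0136, limma). The number of cluster peaks was 17 and 12 in ASC and 26 and 26 in QSC. The call was lost when either QSC library was left out (adjusted p = 0.0959 without replicate 1 and 0.0844 without replicate 2), without scaling (0.0865), and in a fit on the 4 ASC and QSC libraries alone (0.103). The cluster difference was 0.46 in control siRNA against ASC (SE 0.12, adjusted p = 0.0827) and −0.25 in control siRNA against QSC (adjusted p = 0.209). With peaks of −log10 q of at least 5, the sign of the difference between control siRNA and QSC was reversed.

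Relative to locus length, Myh3, the embryonic gene, was the most covered member in every group. Peaks took 14.3% ± 2.2 of its locus in LncMyod siRNA, 13.97% ± 0.46 in control siRNA, 8.68% ± 2.3 in ASC and 7.67% ± 1.9 in QSC (SD, n = 2 each), beside medians of 4.56%, 4.41%, 4.66% and 4.34% over all tested loci in the same groups. In QSC its lead over Myh2 (7.19% ± 0.24) was within the spread of replicates. In scaled length, the Myh3 locus had 5.64 and 6.98 kb with LncMyod siRNA, 6.29 and 6.01 kb with control siRNA, 4.55 and 3.09 kb in ASC, and 3.97 and 2.78 kb in QSC. Both cultured groups lay above every ASC and QSC library, and ASC and QSC overlapped. A region past the 3′ end of the gene, chr11:67104706-67107543, had 2790 and 1792 bp under peaks (unscaled) in LncMyod siRNA and 1842 and 1808 bp in control siRNA. It had 419 bp and none in ASC, and 1353 and 1292 bp in QSC. In the gene body alone, ASC (2935 and 2332 bp, scaled) overlapped control siRNA (2483 and 2558 bp). Over the locus with its flanks, covered length rose in control siRNA against QSC by 0.79 on the log2 scale (SE 0.21, adjusted p = 0.0464, limma). The difference was 0.64 in control siRNA against ASC (adjusted p = 0.140) and 0.15 in ASC against QSC (adjusted p = 0.723). The call against QSC passed in 3 of 15 alternative settings.

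Upstream of Myh3, all 6 libraries other than QSC held a peak within chr11:67076540-67078378, and neither QSC library did. Its deposited fold was 3.34 and 3.72 in LncMyod siRNA, 3.31 and 3.34 in control siRNA, and 3.03 and 3.38 in ASC. Most of these peaks ended before the gene: the near edge stood 596 and 656 bp upstream of the Myh3 start in LncMyod siRNA, 601 bp in control siRNA replicate 2, and 1055 and 1202 bp in ASC. The peak of control siRNA replicate 1 reached across the start and covered all 300 bases of the window. A pattern of all libraries but QSC was found for 3.22% of the 141310 regions of the genome.

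Myh8, the perinatal gene, had 0.704 and 0.742 kb with LncMyod siRNA, 1.28 and 1.11 kb with control siRNA, 0.847 kb and none in ASC, and 1.02 and 1.09 kb in QSC. The control siRNA libraries were the highest, and ASC replicate 2 had no peak at all. No difference passed the threshold, and the nearest was 1.04 in control siRNA against ASC (SE 0.41, adjusted p = 0.196). That value depended on the ASC libraries: it was 1.76 without ASC replicate 1 (adjusted p = 0.0394) and 0.33 without ASC replicate 2 (adjusted p = 0.375), and over 14 alternative settings it ran from 0.33 to 2.07 and passed in 2. In ASC against QSC, Myh8 ran from −1.91 to −0.21 and also passed in 2 of 14, with peaks of −log10 q of at least 5 and without ASC replicate 1. The start of Myh8 lay under a peak in both control siRNA libraries, with folds of 3.59 and 3.32, covering 300 and 215 bases of its window, and in none of the other 6 libraries. Both peaks were weak, with a deposited −log10 q of 4.13 and 3.71. Of all 32585 start windows, 23, or 0.0706%, were held by both control siRNA libraries and by no other. The other peak of the locus lay at chr11:67313704-67314742, in the gap between Myh8 and Myh13, with folds of 5.70 and 5.34 in LncMyod siRNA, 6.63 and 7.36 in control siRNA, 3.61 in ASC replicate 1, and 5.60 and 4.74 in QSC.

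**Figure D2:**
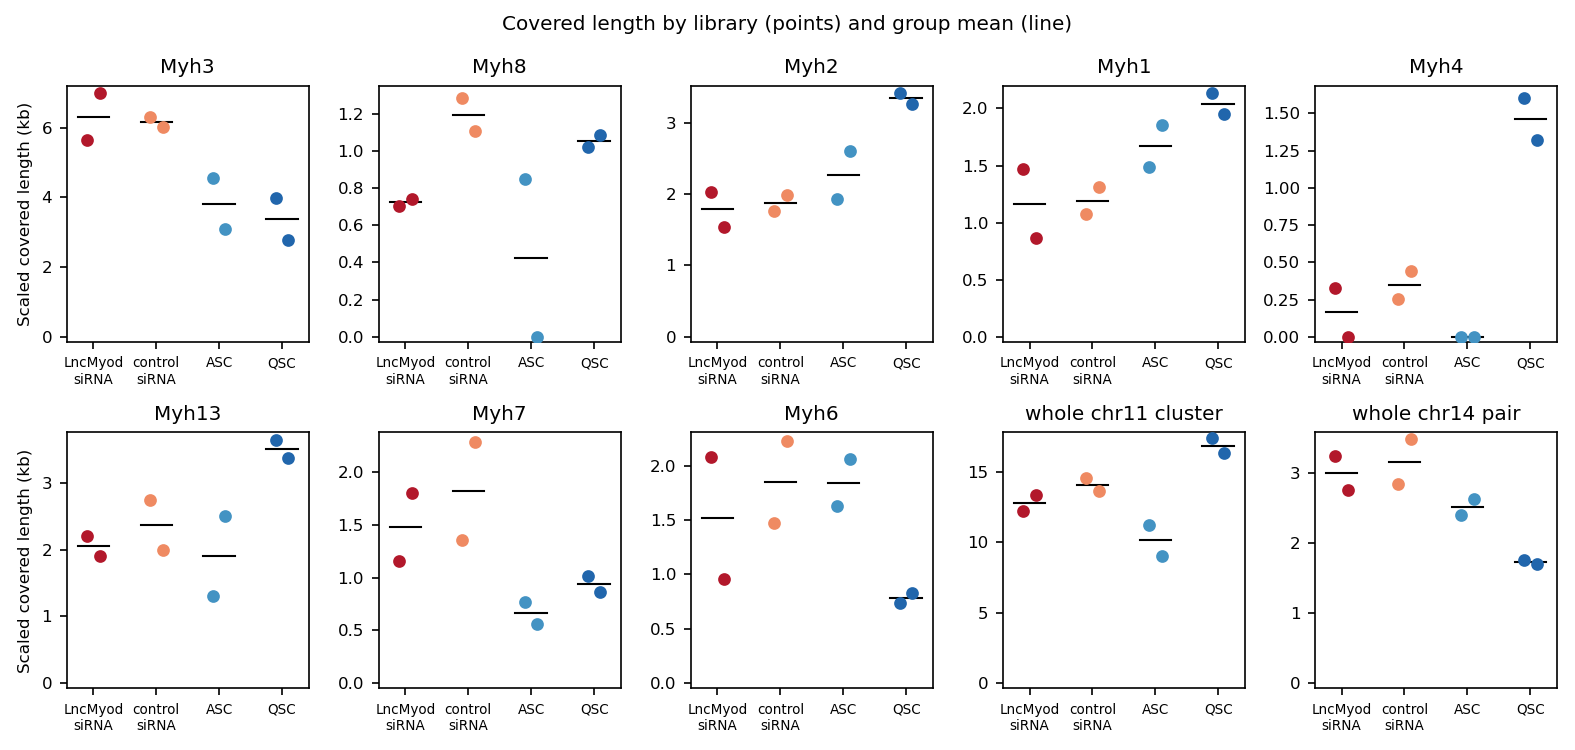
Scaled covered length in kb (vertical axes, each starting near 0) for the 8 member loci and for the whole cluster and pair; points are libraries and lines are the means of 2 libraries. Myh3 is highest in both cultured groups, Myh2, Myh1, Myh4, Myh13 and the whole cluster are highest in QSC, and both ASC libraries are at 0 for Myh4.

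Among the adult fast genes, Myh4 (type IIb, the fastest form of limb muscle) differed most. Its locus had 0.331 kb and none in LncMyod siRNA, 0.256 and 0.441 kb with control siRNA, none in either ASC library, and 1.60 and 1.32 kb in QSC. All 6 libraries outside QSC lay below both QSC values. Every QSC peak of the locus was weak, with a deposited −log10 q of at most 3.52 in replicate 1 and 2.78 in replicate 2. With peaks of −log10 q of at least 5, both QSC libraries had none here. Only control siRNA replicate 1 kept a peak, at 5.87. Covered length fell in ASC against QSC (adjusted p = 0.00739, limma). It was the only one of 8 members called in that comparison, where 12.8% of everything tested was called. It was 1 of 8 members that fell, beside 5.26%, while 0 of 8 rose, beside 7.56%. The fitted log2 difference of −1.97 (SE 0.27) is no measure of the fold, because it depends on the 500 bp added before the logarithm: it was −3.96 with 100 bp and −0.79 with 2000 bp. Covered length also fell in control siRNA against QSC (adjusted p = 0.0253), where the fitted difference of −1.22 (SE 0.27) depends on the same offset and ran from −1.83 to −0.56 over 13 alternative settings. That call passed in 5 of the 13 and was lost when any one of the 4 libraries was left out. The call in ASC against QSC was lost without QSC replicate 1 (adjusted p = 0.0597), without QSC replicate 2 (0.0555) and with lists of equal length (0.0843).

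Both QSC libraries held a weak peak at or just before the Myh4 start, with a deposited −log10 q of 3.14 and 2.78. The peak of QSC replicate 1, chr11:67236807-67237836 with a fold of 3.24, covered the Myh4 start and 275 bases of its window. The peak of QSC replicate 2, chr11:67237029-67237324 with a fold of 3.11, ended 488 bp before that start. Myhas, a long noncoding RNA gene transcribed on the opposite strand, begins in the same interval, so the peaks cannot be assigned to Myh4 alone.

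Myh2 (type IIa) had 2.03 and 1.54 kb with LncMyod siRNA, 1.76 and 1.98 kb with control siRNA, 1.93 and 2.60 kb in ASC, and 3.42 and 3.26 kb in QSC. Both QSC libraries were above all others, and the other 3 groups overlapped. Covered length fell in control siRNA against QSC by 0.70 on the log2 scale (SE 0.17, adjusted p = 0.0362, limma), and the difference in ASC against QSC was −0.48 (adjusted p = 0.117). With the gene body alone, flanks removed, the first difference was 0.37 (adjusted p = 0.637), and its call passed in 6 of 15 alternative settings. The start window of Myh2 was free of peaks in all 8 libraries.

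Myh1 (type IIx) had 1.47 and 0.863 kb with LncMyod siRNA, 1.08 and 1.31 kb with control siRNA, 1.49 and 1.86 kb in ASC, and 2.13 and 1.95 kb in QSC. Both QSC libraries were above all others, but no difference passed the threshold in the main fit. With the gene body alone, Myh1 fell in ASC against QSC (−0.70, adjusted p = 0.0123, limma) and in control siRNA against QSC (−0.83, adjusted p = 0.00657). Each call passed in 1 of 15 alternative settings. Myh1 was the one member whose start was open in every library, with all 300 bases of the window under a peak. A peak in all 8 libraries was found for 40.8% of all start windows. The folds of that peak were 5.32 and 5.27 in LncMyod siRNA, 6.56 and 8.07 in control siRNA, 5.47 and 3.93 in ASC, and 4.81 and 4.87 in QSC.

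**Figure D3:**
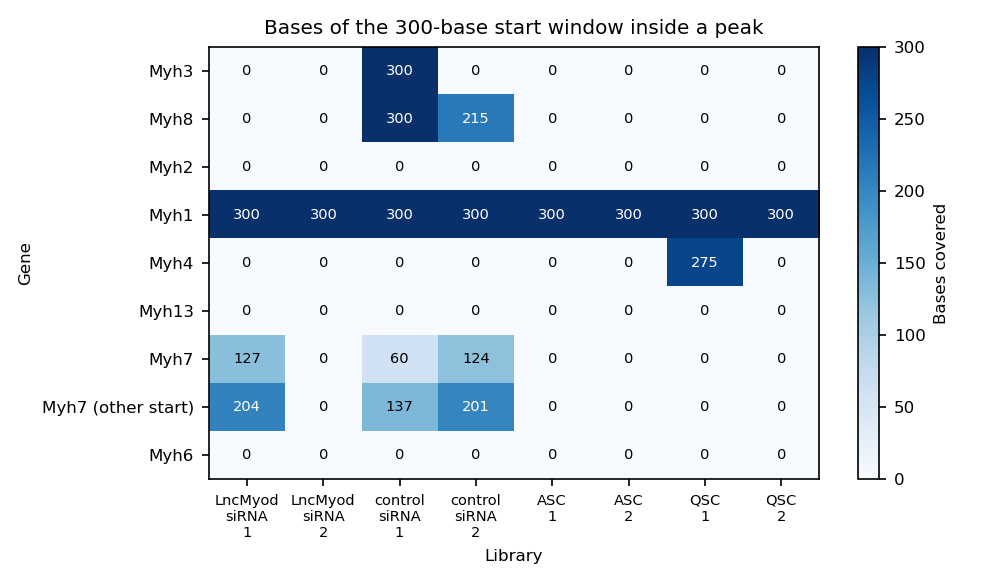
Number of bases of each 300-base start window that lay inside a peak, by gene (rows, Myh7 with both annotated starts) and library (columns). Myh1 is fully covered in all 8 libraries, Myh8 is covered in the control siRNA libraries, Myh3 in control siRNA replicate 1, Myh4 in QSC replicate 1, and Myh2, Myh13 and Myh6 in none.

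Myh13, the extraocular form, had 2.20 and 1.91 kb with LncMyod siRNA, 2.74 and 1.99 kb with control siRNA, 1300 and 2503 bp in ASC, and 3.64 and 3.37 kb in QSC. Both QSC libraries were above the other 6, and the difference in ASC against QSC was −0.78 (SE 0.25, adjusted p = 0.0892, limma). It ran from −1.30 to −0.32 over 15 alternative settings and passed in 3: with peaks of −log10 q of at least 5 (adjusted p = 0.00495), with lists of equal length (0.0466) and without ASC replicate 2 (0.0382, a difference of −1.15). Without ASC replicate 1 the difference was −0.41 (adjusted p = 0.244). A peak inside the gene at chr11:67357912-67358679 was present in all 8 libraries, with folds of 6.75 and 4.89 in LncMyod siRNA, 8.10 and 6.99 in control siRNA, 4.94 and 2.48 in ASC, and 4.93 and 4.98 in QSC. A peak beyond its 3′ end, at chr11:67379674-67380541, ranked in the top 7.47% and 3.12% of the QSC lists. In the other 6 libraries it ranked between the top 25.9% and 69.7%.

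Both QSC libraries alone held 7 of the 43 cluster regions, a pattern found for 5.18% of all 141310 regions. The strongest stood 2.8 kb upstream of Myh13, at chr11:67323470-67324268, with folds of 5.84 and 5.94. A neighbouring pair stood upstream of Myh2, at chr11:67151649-67152258 with folds of 5.58 and 5.26 and at chr11:67153182-67153519 with folds of 4.95 and 4.68. Another region near Myh2, chr11:67169181-67169837, ended 1190 bp before its start and had folds of 2.82 and 2.84. The others were the region at the Myh4 and Myhas starts, one inside Myh1 (chr11:67204602-67205170, folds 3.33 and 3.09) and one inside Myh13 (chr11:67360183-67360459, folds 2.96 and 2.90). At a deposited −log10 q of at least 5, 4 of the 7 had both QSC peaks.

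Counted by comparison, 3 regions of the cluster and the pair were held by both ASC libraries and neither QSC library, and 11 by both QSC libraries and neither ASC library. Over all regions of the genome the shares were 5.99% and 8.54%. Control siRNA held 4 regions that ASC lacked and 1 the other way, beside 11.7% and 2.64% of all regions. Against QSC, control siRNA held 4 and QSC 7, beside 15.5% and 8.09%. Without ASC replicate 1, the number held by QSC and not ASC was 17, and without ASC replicate 2 the number held by ASC and not QSC was 7. With 2 libraries against 2, an exact permutation test cannot reach the threshold, so these counts have no p.

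On chromosome 14, the pair as a whole had 3.24 and 2.76 kb with LncMyod siRNA, 2.84 and 3.49 kb with control siRNA, 2.40 and 2.62 kb in ASC, and 1.75 and 1.69 kb in QSC. Here QSC was the lowest group and overlapped no other. In control siRNA replicate 2, 1054 of 3559 bp (unscaled) came from a peak inside Myh6, chr14:54960923-54961976, which no other library held. That peak was weak, with a fold of 2.39 and a deposited −log10 q of 1.47. Covered length rose in control siRNA against QSC by 0.71 on the log2 scale (SE 0.14, adjusted p = 0.0179, limma), and the difference in ASC against QSC was 0.44 (adjusted p = 0.0909). The call was lost without any one of its 4 libraries, whose values ran from 0.59 to 0.84, and without scaling (adjusted p = 0.0511).

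Myh6, the alpha-cardiac gene, had 2.08 and 0.961 kb with LncMyod siRNA, 1.48 and 2.23 kb with control siRNA, 1.63 and 2.06 kb in ASC, and 0.741 and 0.827 kb in QSC. All 6 other libraries were above both QSC libraries, but neither difference from QSC passed the threshold (0.86 in control siRNA, adjusted p = 0.0907; 0.86 in ASC, adjusted p = 0.102). Every library held a peak inside the gene at chr14:54945579-54946569, with folds of 5.34 and 3.95 in LncMyod siRNA, 6.41 and 6.65 in control siRNA, 6.72 and 4.29 in ASC, and 4.12 and 3.00 in QSC. A further region in its locus, chr14:54936146-54937581, was held by all libraries but QSC and lies in Cmtm5, a neighbouring gene. No peak touched the Myh6 start window.

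Myh7, the slow and beta-cardiac gene, had 1.16 and 1.80 kb with LncMyod siRNA, 1.36 and 2.29 kb with control siRNA, 0.767 and 0.565 kb in ASC, and 1.01 and 0.867 kb in QSC. The cultured libraries were the higher 4, and the difference in control siRNA against ASC was 0.97 (SE 0.25, adjusted p = 0.0816, limma). In control siRNA replicate 2, 1054 of 2336 bp (unscaled) came from the weak peak inside Myh6 that no other library held. In LncMyod siRNA replicate 2, 993 of 1748 bp came from a peak inside Myh7, chr14:54981946-54982938, with a −log10 q of 2.16. That peak was also held by a single library, so the order of the libraries rests partly on such peaks. All libraries held a peak 2.2 kb upstream of the gene, at chr14:54996841-54997743. A smaller peak just before the start was held by LncMyod siRNA replicate 1, both control siRNA libraries and QSC replicate 1, with folds of 2.03, 3.08, 2.92 and 2.87. The microRNA hairpins inside these genes, Mir208a in Myh6 and Mir208b in Myh7, lay under no peak in any library.

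The LncMyod siRNA comparison showed no called difference at these genes. Log2 differences of the 8 members in LncMyod siRNA against control siRNA ran from −0.47 (Myh8) to 0.03 (Myh3), and the lowest adjusted p was 0.723 (limma). Of the 8 members 0 were called, beside 0.0215% of everything tested, and 0 of 8 had an unadjusted p under 0.05, beside 9.81%. The cluster differed by −0.13 (SE 0.12, adjusted p = 0.797) and the pair by −0.06 (SE 0.14, adjusted p = 0.931). No region was held by both LncMyod siRNA libraries and neither control siRNA library, beside 2.20% of all regions, and 2 were held the other way, beside 1.42%. They were the Myh8 start and a region in Cmtm5, chr14:54939279-54939708. A p above the threshold does not show that the groups were alike.

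**Figure D4:**
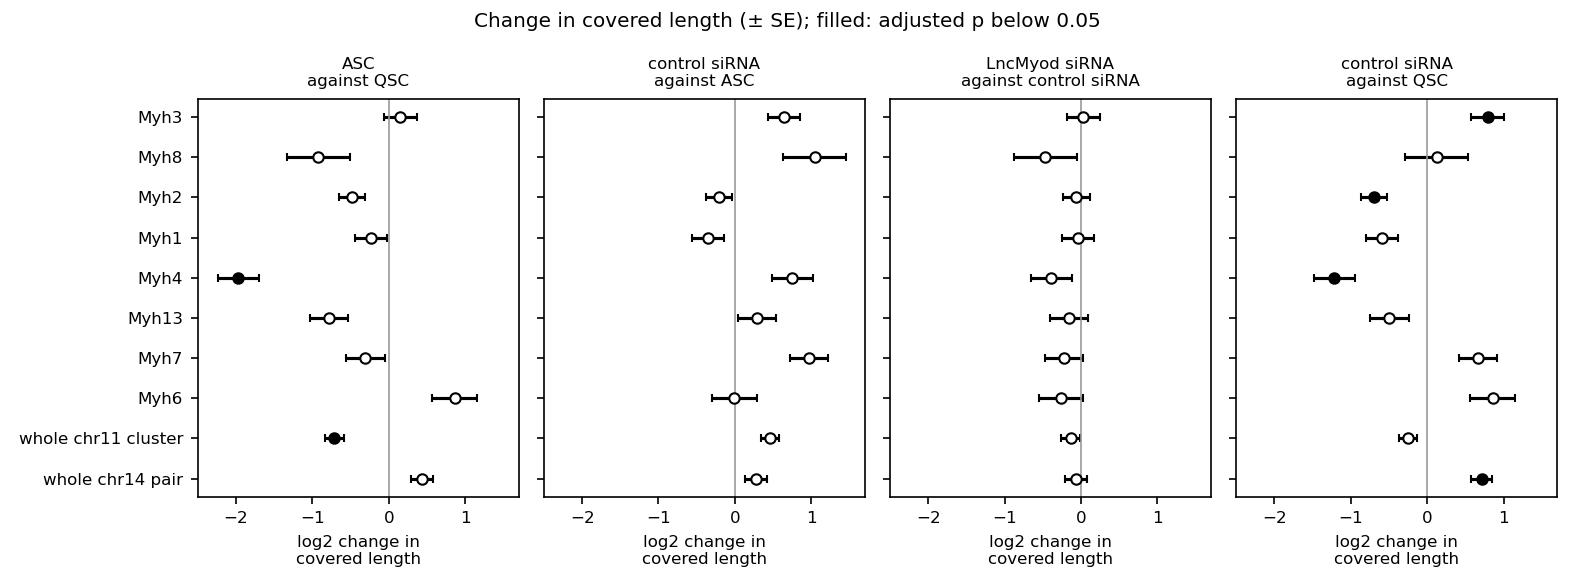
Log2 difference in scaled covered length with its SE for the 8 member loci, the whole cluster and the whole pair in 4 comparisons; filled points have an adjusted p below 0.05 (limma). Filled points are Myh4 and the cluster in ASC against QSC, and Myh3, Myh2, Myh4 and the pair in control siRNA against QSC.

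Of the 8 members, 0 were called in control siRNA against ASC, beside 3.99% of everything tested (2.28% higher and 1.72% lower), while 4 of 8 had an unadjusted p under 0.05, beside 22.3% of everything tested (limma), and neighbouring members share peaks. The comparison of control siRNA against QSC had 3 of 8 called, beside 16.9% of everything tested: 1 of 8 rose, beside 9.96%, and 2 of 8 fell, beside 6.96%. A single member was called in a fit with the replicate number as a block, and 0 of 8 when any one of the 4 libraries was left out. The median log2 difference of the 8 members was −0.40 in ASC against QSC, beside 0.06 over all tested loci. In control siRNA against ASC it was 0.466, beside −0.078. It was −0.185 in control siRNA against QSC, beside 0, and −0.189 in LncMyod siRNA against control siRNA, beside −0.050. Comparisons that share a group use the same libraries and are not independent of each other.

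Genes that build or regulate the thick filament were followed alongside. Among loci of myosin light chains and their kinases, 4 of 9 rose and none fell in control siRNA against QSC (limma), beside 9.96% and 6.96% of everything tested, with a list median of 0.58 beside 0.00 over all loci. Myl1, the fast alkali light chain, had 4.67 and 2.26 kb with LncMyod siRNA, 5.26 and 5.77 kb with control siRNA, 2.01 and 0.588 kb in ASC, and 0.377 and 0.337 kb in QSC, a rise of 2.81 in control siRNA against QSC (SE 0.42, adjusted p = 0.00788). Mylk4, Myl7 and Myl2 rose by 0.84, 1.16 and 0.71. Myl2, the slow regulatory light chain, was the one gene of the list that rose in control siRNA against ASC (1.08, adjusted p = 0.0304), where 2.28% of everything tested rose, and in ASC against QSC none of the 9 passed.

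Of 12 thick filament and myosin assembly genes, 5 rose in control siRNA against QSC and none fell, beside the same 9.96% and 6.96%, with a list median of 0.33. They were Smyd1, a methyltransferase needed for sarcomere assembly (0.91), the M-band genes Myom3 (1.01) and Myom2 (1.06), Mybph (1.58) and Trim55 (0.96). In ASC against QSC 1 of the 12 rose, Smyd1 (0.78, adjusted p = 0.0179, limma), which is close to the 7.56% of everything tested that rose. Myom2 was the 1 gene that rose in control siRNA against ASC (0.99, adjusted p = 0.0392, limma), beside 2.28%. Among 6 other myosin heavy chains, Myh14, Myh15 and Myh7b rose in control siRNA against QSC, beside 9.96% of everything tested, with a list median of 0.63. Myh14 and Myh15 rose and Myh11, the smooth muscle form, fell in ASC against QSC, beside 7.56% and 5.26%. For Myh15 both QSC libraries were listed at 0.

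Of 19 transcription factors known to act on Myh genes, 4 rose in control siRNA against QSC and none fell, beside 9.96% and 6.96% of everything tested and with a list median of −0.03: Tead4 (0.58), Myog (1.25), Mef2c (0.49) and Myod1 (0.58). Myog, the myogenin gene that marks the start of differentiation, had 5.33 and 4.30 kb with LncMyod siRNA, 5.63 and 4.84 kb with control siRNA, 2.39 and 2.76 kb in ASC, and 1.50 and 2.40 kb in QSC. In ASC against QSC, Mef2c (0.73, adjusted p = 0.0079, limma) and Tead4 (0.38, adjusted p = 0.0427) rose, 2 of 19 and close to the 7.56% of everything tested. In LncMyod siRNA against control siRNA, 0 of the 90 genes of all the lists were called, and 13 had an unadjusted p under 0.05, beside 9.81% of everything tested, so this count is near the background.

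Markers of other cells moved with some of these results. Of 7 tested leukocyte markers, 4 rose in ASC against QSC, beside 7.56% of everything tested, and 5 rose in control siRNA against QSC, beside 9.96%, with list medians of 0.86 and 1.73. Their summed covered length over 8 loci was 12.0 to 16.5 kb with LncMyod siRNA, 14.3 to 14.8 kb with control siRNA, 8.79 to 10.1 kb in ASC and 5.33 to 5.64 kb in QSC, with 5 or 6 of the 8 genes at 0 in QSC. Beside the chromosome 14 pair, 3 of 8 cardiomyocyte markers (Nppb, Nppa and Hcn4) rose in ASC and in control siRNA against QSC, beside 7.56% and 9.96%, with sums of 18.4 to 20.3 kb with LncMyod siRNA, 18.8 to 18.9 kb with control siRNA, 17.5 to 20.4 kb in ASC and 10.9 to 12.0 kb in QSC. Neither Nppb nor Nppa had a peak in either QSC library. Of the endothelial markers, 1 of 6 rose and 1 fell in ASC against QSC, 2 rose and 1 fell in control siRNA against QSC, against the same shares, and no fibroadipogenic marker of 5 was called in any comparison. A list of 11 mature fast myofibre genes, drawn up after the coverage of the cluster had been seen, had 3 genes that rose and none that fell in ASC against QSC, beside 7.56% and 5.26%. Its sums were 43.1 to 47.6 kb with LncMyod siRNA, 49.6 to 49.8 kb with control siRNA, 33.7 to 40.6 kb in ASC and 27.8 to 32.8 kb in QSC. The sum was lowest in QSC, but not every gene was: Myoz1 had its highest mean there (3.29 kb, against 2.14 kb in ASC). Ckm, Tnnt3 and Cacna1s also had higher means in QSC than in ASC, and the rest of the list had lower ones. In mixed samples, a larger share of cells with an open locus and a locus more often open in each cell cannot be told apart. The part of other cell types in these differences was not tested.

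The loci most like the chromosome 11 cluster across the 8 libraries, among 2526 with enough spread, were Nnmt (Pearson's r = 0.97), Insyn2b (0.97), A630001G21Rik (0.97), Cd200r3 (0.96) and Pid1 (0.94). All 5 were picked for this likeness out of many, and the points share their libraries and scaling. Nnmt, the nicotinamide N-methyltransferase gene, had 2335 and 2075 bp in LncMyod siRNA, 3082 and 2621 bp in control siRNA, 1555 and 800 bp in ASC, and 3613 and 3618 bp in QSC.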

How the data were processed

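ATAC-seq peak lists of 8 libraries were used, 2 per group, with groups taken from the labels. The submitters' processing notes name mm10 as the build and MACS2 2.1.1, Bowtie2 2.3.2, Trimmomatic 0.36, SAMtools 1.3, Picard 2.9.2, bedtools 2.26.0 and bcl2fastq 2.19 as tools. Any shift of read ends and other settings were not given in the sources used here. A fold enrichment, a −log10 p and a −log10 q from the authors' peak caller stand beside each deposited peak. The deposited display score, 10 times the −log10 q up to a ceiling, was not used. Peaks were called per library.

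Peaks overlapping each gene body with 10 kb on both sides (RefSeq, GRCm38.p6) were summed in bp, multiplied by the mean total over the library's own total, and analysed as log2(scaled bp + 500), so fold changes of little covered loci are understated. Loci with at least 200 bp in at least 2 libraries were kept. limma 3.58.1 in R 4.3.3 fitted 4 group means to 8 libraries with a trended prior, over 27934 loci and the 2 domains. P-values were Benjamini-Hochberg adjusted within a comparison at 0.05, and "rose" and "fell" refer to that threshold. A region merged overlapping peaks of all libraries with numpy 2.4.6, and a library held it with any overlap. The code was tested on simulated data.

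The named genes were all 8 members, the called genes of each list (up to 6, by p), the 5 loci most like the cluster, and the member-start and strongest group-specific regions. Further peaks were described after their values were seen. The members, lists and tests were chosen with earlier results of these data known. Alternatives covered the offset, scaling, threshold, list length, low-value filter, peak number, flanks, fitted libraries, replicate block and leaving out each library. No file carries read counts, so no counting interval is given.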

Additional observations from a re-analysis of the deposited data

How the results depend on the processing

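Groups of 2 libraries, unknown depth and peak borders set by each library's own background limit these values, and most calls rest on few peaks. All differences here are log2 differences in covered length. For the cluster in ASC against QSC they were −0.77 without scaling and −0.71 in the fit on 4 libraries (no longer called), and −0.86 to −0.56 with each library left out. In control siRNA against ASC it was 0.75 with stricter peaks (−log10 q of at least 5) and 0.57 with lists of equal length, both called. In LncMyod siRNA against control siRNA it was 0.074 and 0.0743 with these, the reverse of the main sign, and in control siRNA against QSC 0.0315 with stricter peaks, also reversed, and −0.48 by peak number, called. For the pair in LncMyod siRNA against control siRNA it was 0.0326 without scaling, reversed, and −0.19 to 0.0653 with each library left out. In control siRNA against QSC it was 0.79 without scaling, 0.80 with stricter peaks, 0.41 by peak number and 0.59 to 0.84 with each library left out, none called.

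Members called in ASC against QSC numbered 2 with stricter peaks, 3 with equal lists and 0 to 2 with each library left out. In control siRNA against ASC they were 1, 2 and 0 to 1 under those settings. In control siRNA against QSC they were 1 with an offset of 100 bp, 0 without scaling, 0 without the low-value filter, 1 by peak number, 1 with gene bodies alone and 0 with each library left out. Same-numbered libraries of different groups had deviations correlated by 0.0080 to 0.096. These low values do not show whether same-numbered libraries share an animal, a culture or a batch. With the replicate block 1 member was called in control siRNA against QSC, and over all loci 3192 in ASC against QSC, 552 in control siRNA against ASC, 0 in LncMyod siRNA against control siRNA and 4355 in control siRNA against QSC.

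Regions held by ASC and not QSC numbered 1 at 50% overlap, 1 with stricter peaks and 3 to 7 with each library left out, and those held by QSC and not ASC 11 to 17. Regions held by control siRNA and not ASC numbered 2 with equal lists and 6 to 11 with each library left out; the other way they numbered 0 at 50% overlap, with stricter peaks and with equal lists, and 1 to 3. Regions held by LncMyod siRNA and not control siRNA numbered 1 with equal lists and 0 to 4 with each library left out, and the other way 1 at 50% overlap, with stricter peaks and with equal lists, and 2 to 6. Regions held by control siRNA and not QSC numbered 2 with equal lists and 4 to 8 with each library left out.

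Signs reversed for single members as follows, none of them past the threshold when reversed. In ASC against QSC, Myh3 was −0.15 with equal lists and −0.0937 to 0.40 with each library left out, Myh1 0.0818 with stricter peaks and Myh7 0.0285 by peak number. In control siRNA against ASC, Myh3 was −0.0461 and Myh2 0.45 with gene bodies alone, and Myh13 −0.0134 with equal lists and −0.0796 to 0.66 with each library left out. There Myh6 was 0.12 without scaling, 0.0708 with quantile normalization, 0.12 by peak number, 0.39 with the gene body alone and −0.24 to 0.23 with each library left out. In LncMyod siRNA against control siRNA, Myh3 was −0.0051 by peak number, Myh2 0.0292 without scaling, 0.38 with stricter peaks and 0.19 with equal lists, and Myh1 0.042, 0.47 and 0.27 under those settings and 0.0455 with the gene body alone. Myh8 was 0.0497 with stricter peaks, Myh13 0.22 with equal lists, and Myh6 0.23 with stricter peaks and 0.083 with equal lists. With each library left out that comparison ran from −0.11 to 0.17 for Myh3, −0.22 to 0.10 for Myh2, −0.31 to 0.22 for Myh1, −0.35 to 0.032 for Myh13, −0.67 to 0.15 for Myh6 and −0.51 to 0.0715 for Myh7. In control siRNA against QSC, Myh2 was 0.37 with the gene body alone, and Myh8 −0.29 with stricter peaks and −0.087 with equal lists. The cause was not tested for any of these. Myh4 could not be fitted with stricter peaks or the gene body alone, nor Myh7 and Myh8 with the gene body alone, because too little length was covered, and the gene body setting was not run for the domains.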
